A study of Mus musculus with 12 samples.

Results

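The genes that make, carry, store and break down serotonin, and those that can fix it onto histones, were followed as a set of 10 genes chosen by symbol: Tgm2, Wdr5, Maoa, Maob, Ddc, Tph2, Slc6a4, Slc18a2, Slc22a3 and Slc29a4. All 10 were among the 24421 rows of both deposited tables. The study sequenced polyA RNA of bulk mouse tissue from 4 groups of 3 libraries. These were wild-type cortex without tumour, ependymomas carrying the ZFTA-RELA fusion (control tumours), tumours with the same fusion and added overexpression of human ETV5 (ETV5 tumours), and tumours with the fusion and added overexpression of human NPY (NPY tumours). ZFTA-RELA is the fusion oncogene of most supratentorial ependymomas, ETV5 is an ETS transcription factor, and NPY encodes the neuropeptide Y precursor. The labels give neither the strain and age of the mice nor the way the genes were delivered. The labels do not say whether the 3 libraries of a group came from separate animals, so p-values measure only the spread between these samples.

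Serotonin is made from tryptophan by tryptophan hydroxylase (Tph2 in neurons, Tph1 elsewhere) and aromatic amino acid decarboxylase (Ddc). It is packed into vesicles by Slc18a2 (VMAT2) and taken back into cells by the high-affinity transporter Slc6a4 (SERT) or by the low-affinity carriers Slc22a3 (OCT3) and Slc29a4 (PMAT). It is oxidised by the monoamine oxidases Maoa and Maob. Tissue transglutaminase, encoded by Tgm2, can join serotonin to glutamine side chains, among them one in the tail of histone H3 next to the lysine that WDR5-containing methyltransferase complexes methylate, and WDR5 can bind that modified tail. In the brain the cell bodies of serotonin neurons lie in the raphe nuclei of the brainstem, so cortex holds their axons but not their nuclei.

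Recovered depth ran from 5962376 to 7444467 reads in cortex, from 6266613 to 9443466 in control tumours, from 6691146 to 11291057 in ETV5 tumours and from 8214523 to 10481943 in NPY tumours. Levels are reads scaled to the total of their library (CPM). In cortex, 9 neuron markers summed to 9343 to 10792 CPM, and in the tumours they summed to at most 1270 CPM. Rela read 18.5 to 19.1 CPM in cortex and 73.9 to 105 CPM over the 9 tumour libraries. Mouse Etv5 read 401 to 474 CPM in ETV5 tumours and 264 to 322 CPM in control tumours, and mouse Npy read 2.19 to 15.9 CPM in NPY tumours and 21.5 to 46.1 CPM in control tumours. Both added genes are human, so the mouse rows do not check the labels. The library codes in the labels begin with DS for cortex, control tumours and ETV5 replicates 1 and 2, and with EC for ETV5 replicate 3 and all NPY tumours. A difference between NPY tumours and the control tumours or cortex therefore cannot be told apart from this code.

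RefSeq promoter sequences of build GRCm38.p6 were matched by symbol for 8 of the 10 genes. The 4 printed here belong to members whose levels separated cortex from all 3 tumour groups. Each is the 250 bases before the annotated start, 5′ to 3′ on the gene's strand. No annotated exon overlaps them. The RefSeq start of Slc29a4 lies 9589 bases inside the gene as GENCODE places it. Capitals mark matches, on either strand, to 4 motifs: GGGCGG (the GC box bound by Sp factors), CCGGAA (the core that ETS factors bind), TATAAA (the TATA element) and the NF-kB consensus, which is the site class that RELA binds.
Maoa, chrX:16619448-16619697, plus strand: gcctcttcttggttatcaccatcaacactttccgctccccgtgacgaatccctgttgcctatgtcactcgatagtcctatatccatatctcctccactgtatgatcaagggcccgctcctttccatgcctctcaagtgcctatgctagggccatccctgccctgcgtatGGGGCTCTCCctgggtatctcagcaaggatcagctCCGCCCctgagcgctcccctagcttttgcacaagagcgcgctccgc
Slc29a4, chr5:142701851-142702100, plus strand: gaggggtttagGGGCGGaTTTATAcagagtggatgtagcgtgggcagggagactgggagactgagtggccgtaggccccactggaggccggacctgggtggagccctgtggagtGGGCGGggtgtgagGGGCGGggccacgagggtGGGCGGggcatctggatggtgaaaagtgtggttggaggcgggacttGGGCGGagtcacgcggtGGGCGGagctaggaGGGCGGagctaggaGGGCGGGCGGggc
Slc22a3, chr17:12507705-12507954, minus strand: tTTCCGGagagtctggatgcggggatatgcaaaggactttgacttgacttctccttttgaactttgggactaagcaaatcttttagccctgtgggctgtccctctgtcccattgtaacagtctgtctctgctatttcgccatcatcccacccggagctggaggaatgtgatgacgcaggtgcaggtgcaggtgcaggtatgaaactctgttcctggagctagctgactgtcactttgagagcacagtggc
Wdr5, chr2:27514897-27515146, plus strand: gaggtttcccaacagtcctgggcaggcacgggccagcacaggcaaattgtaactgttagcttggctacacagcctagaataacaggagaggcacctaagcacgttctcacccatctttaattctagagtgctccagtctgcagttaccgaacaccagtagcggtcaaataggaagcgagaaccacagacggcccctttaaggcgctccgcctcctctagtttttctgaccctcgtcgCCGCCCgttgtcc
The Maoa window held 1 NF-kB match, from 81 to 72 bases before the start, and 1 GC box from 46 to 41 bases before it. The Slc29a4 window held 9 GC boxes, of which the last 2 overlap, and 1 TATA match on the opposite strand. The Slc22a3 window held 1 ETS core, from 249 to 244 bases before the start, and the Wdr5 window 1 GC box from 13 to 8 bases before it. Of all 32851 windows of this length, 3.90% held the NF-kB consensus, 12% the ETS core, 32.7% a GC box and 12.4% a TATA match. The CRE motif TGACGTCA, held by 1.55% of all windows, was found in no member's window. GC content was 56.8% for Maoa, 68.8% for Slc29a4, 51.2% for Slc22a3 and 54.4% for Wdr5, and the median over all windows was 52.4%. A match describes the letters in the window and no binding was measured.

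The joining enzyme showed the highest level of the set in every tumour group. Tgm2 (ENSMUSG00000037820.15, mm10 chromosome 2, 158116402 to 158146436, minus strand) read 10.9, 10.1 and 12 CPM in cortex replicates 1 to 3. It read 404, 498 and 382 CPM in control tumours, 509, 124 and 281 CPM in ETV5 tumours, and 488, 468 and 717 CPM in NPY tumours. Every tumour library lay above every cortex library, and the 3 tumour groups overlapped each other. Per kilobase of exon the mean level was 2.38 CPM in cortex, 92.9 CPM in control tumours, 66.1 CPM in ETV5 tumours and 121 CPM in NPY tumours. Control tumours exceeded cortex 34.1-fold (log2 difference 5.09, 95% interval 4.76 to 5.42, limma adjusted p = 2.61e-07). The log2 difference from cortex was 4.37 (SE 0.48, adjusted p = 0.000397) in ETV5 tumours and 5.46 (SE 0.17, adjusted p = 6.7e-07) in NPY tumours by limma. All fold changes are on the log2(value + 1) scale, and those of NPY tumours against cortex use reads of all 12 libraries scaled together, because these groups stand in different tables. In bulk RNA, fewer or more cells of a type and less or more RNA per cell cannot be told apart.

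Within the tumours, Tgm2 varied most in the ETV5 group, where replicate 1 was 509 CPM and replicate 2 was 124 CPM. The ETV5 mean of 304 ± 193 CPM (SD, n = 3) and the control mean of 428 ± 61.3 CPM (SD, n = 3) gave a log2 difference of -0.72 (SE 0.49, limma adjusted p = 0.77). Leaving out ETV5 replicate 2 made that difference -0.17, and leaving out replicate 1 made it -1.18, so its size depended on which library was left out. NPY tumours, at 558 ± 138 CPM (SD, n = 3), differed from control tumours by 0.45 on the log2 scale (SE 0.21, limma adjusted p = 0.253). Macrophages and endothelial cells are known to express Tgm2. The 12 macrophage and microglia markers summed to 537 to 626 CPM in cortex, 3038 to 6464 CPM in control tumours, 1701 to 3396 CPM in ETV5 tumours and 2639 to 5460 CPM in NPY tumours, with none at 0. In control tumours against cortex 11 of the 12 rose and 1 fell, beside 35.7% and 36.2% of all genes tested. The 8 endothelial markers summed to 96.8 to 154 CPM in cortex, 311 to 424 CPM in control tumours, 192 to 346 CPM in ETV5 tumours and 130 to 398 CPM in NPY tumours, again with none at 0, so that the NPY tumours overlapped cortex. Their part in the Tgm2 difference was not tested. In the ETV5 library with the lowest Tgm2, replicate 2, these sums were 2914 and 346 CPM. In ETV5 replicate 1, with the highest, they were 1701 and 292 CPM. In NPY replicates 1 to 3 the endothelial sums (157, 130 and 398 CPM) followed the order of Tgm2, and the macrophage sums (2639, 5460 and 3289 CPM) did not. In control replicates 1 to 3 the endothelial sums were 311, 424 and 403 CPM. The macrophage sums there were 6464, 4527 and 3038 CPM.

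**Figure D1:**
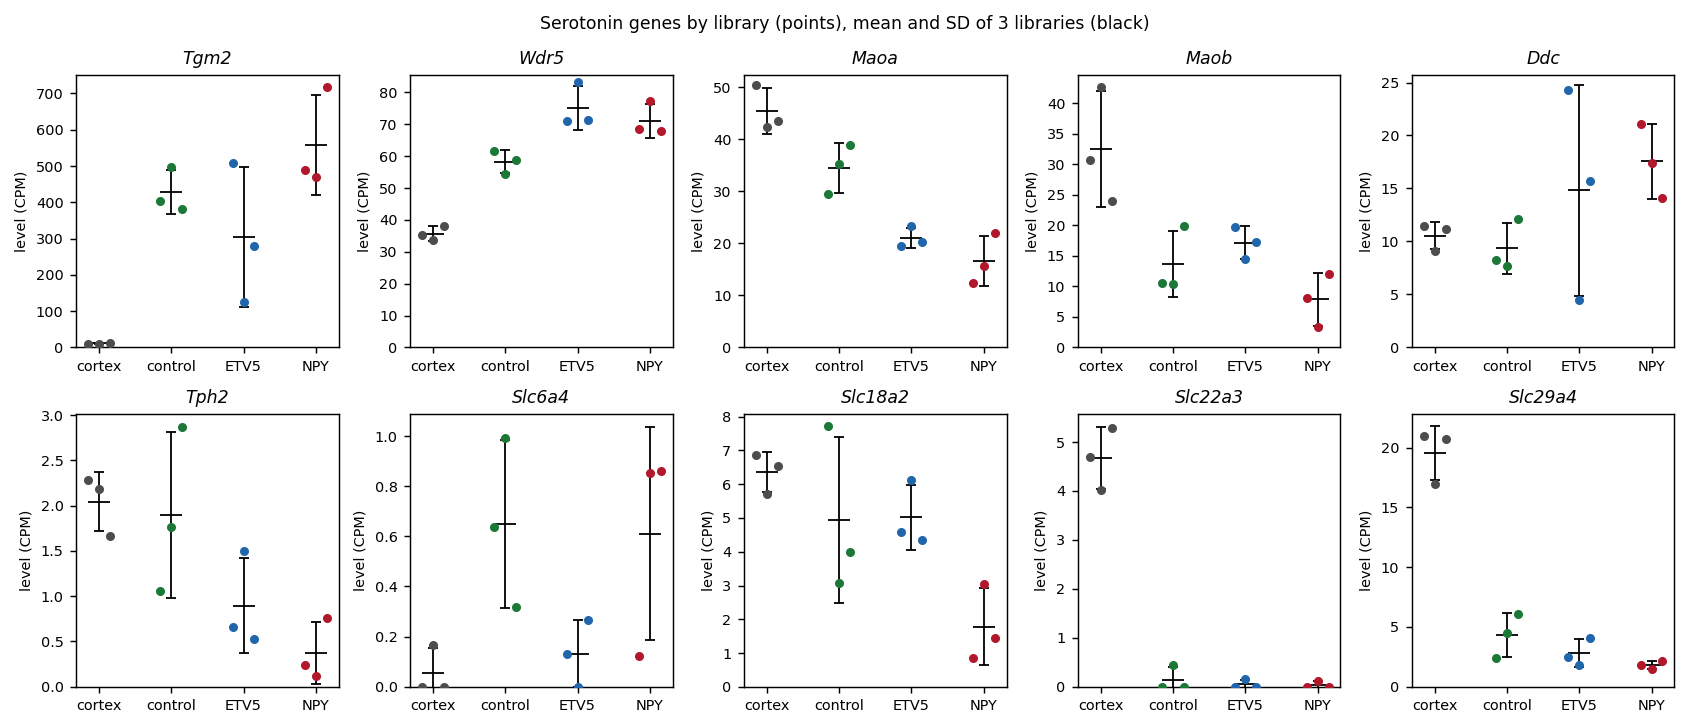
Level of each serotonin gene in CPM (vertical axis, linear from 0, scaled separately per gene) in the 4 groups. Points are libraries, and black bars are the mean and SD of 3 libraries. Tgm2 lies at 10.1 to 12 CPM in cortex and at 124 to 717 CPM in the tumours, and every cortex library of Slc29a4 lies above every tumour library.

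The other transglutaminases were lower. Tgm2 supplied 52.6% ± 7.69 (SD, n = 3) of the reads per exon length over 8 transglutaminase genes in cortex, 86.9% ± 4.65 in control tumours, 86.1% ± 8.18 in ETV5 tumours and 92.5% ± 0.396 in NPY tumours. Each tumour library (79.0% to 95%) lay above each cortex library (45.3% to 60.7%). Of the 7 other family members in the tables, 4 were tested in control tumours against cortex, and 3 of these rose, in a comparison where 72.0% of all genes were called. They were Tgm1, the epidermal enzyme (0.341 ± 0.0746 to 23.9 ± 11.4 CPM, log2 difference 5.43), F13a1, the coagulation factor XIII subunit of macrophages and platelets (2.68 ± 1.36 to 18.5 ± 13.2 CPM, 2.41), and Tgm4 (2.91 ± 0.988 to 11.3 ± 2.22 CPM, 1.78). Tgm1 passed the read filter only through the tumours and Tgm3, which was not called, only through cortex. Against control tumours none of the 3 members tested passed in ETV5 or NPY tumours, and Tgm1 read 8.94 ± 2.41 CPM in ETV5 and 6.07 ± 5.99 CPM in NPY tumours. Epb42, also on the list, had no row of that symbol among the uniquely named genes and could not be analysed. Tgm2 overlaps Rprd1b on the other strand, and no label says whether counting used the strand. Rprd1b itself read 25.8 to 67.0 CPM over all 12 libraries.

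Wdr5, which encodes the shared scaffold of the histone H3 lysine 4 methyltransferase complexes, was higher in tumours than in cortex, with little spread within a group. Wdr5 (ENSMUSG00000026917.15, chromosome 2, 27515157 to 27536535, plus strand) read 35.3, 33.5 and 38.1 CPM in cortex and 61.5, 54.4 and 58.9 CPM in control tumours. It read 71.0, 83.1 and 71.4 CPM in ETV5 tumours and 68.4, 77.3 and 67.7 CPM in NPY tumours. Cortex lay below control tumours, and control tumours below both other tumour groups, without overlap, while ETV5 and NPY tumours overlapped. Control tumours exceeded cortex 1.45-fold (log2 difference 0.53, SE 0.11, limma adjusted p = 0.0027). The fold over cortex was 1.85 in ETV5 tumours (limma adjusted p = 0.0012) and 1.78 in NPY tumours (adjusted p = 0.000863). Against control tumours the log2 difference was 0.35 in ETV5 tumours (SE 0.14, limma unadjusted p = 0.0418, adjusted p = 0.732) and 0.37 in NPY tumours (SE 0.13, adjusted p = 0.155), and neither passed.

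Of the partners of WDR5, 12 did not pass and the others went in both directions. All 16 were tested in control tumours against cortex, where 2 rose and 2 fell, with a median log2 difference of 0.15, beside 35.7% and 36.2% of all genes tested. Ash2l, a core subunit of the same complexes, rose by 0.61 (39.1 ± 2.35 to 67.3 ± 5.05 CPM), and Cxxc1, the CpG-binding subunit of the SET1 complexes, rose by 0.38. Kmt2a, the MLL1 methyltransferase, fell by 0.66 (96.1 ± 11 to 69.1 ± 11 CPM), and Men1, which encodes its cofactor menin, fell by 0.47. Wdr5b, a close paralog of Wdr5, differed by 0.22 (adjusted p = 0.445 by limma). In ETV5 tumours against cortex 4 of the 16 rose and 2 fell (31.8% and 32.0% of all genes), in NPY tumours against cortex 5 rose and 2 fell (35.1% and 35.9% of all genes), and against control tumours none passed in either group.

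The oxidases were lower in tumours. Maoa (ENSMUSG00000025037.6, chromosome X, 16619698 to 16687818, plus strand) oxidises serotonin in preference to other amines. It read 50.5, 42.4 and 43.4 CPM in cortex, 29.4, 35.3 and 38.9 CPM in control tumours, 19.6, 23.3 and 20.3 CPM in ETV5 tumours and 12.4, 15.6 and 21.9 CPM in NPY tumours. The 3 cortex libraries lay above the control tumours, and the control tumours above the ETV5 and NPY tumours, with no overlap at either step. Against cortex Maoa fell 1.49-fold in control tumours (log2 difference -0.57, SE 0.14, limma adjusted p = 0.00604). It fell 2.44-fold in ETV5 tumours (log2 difference -1.29, limma adjusted p = 0.000485) and 3.12-fold in NPY tumours (-1.64, adjusted p = 0.000387). Against control tumours the log2 difference was -0.72 in ETV5 tumours (SE 0.19, limma unadjusted p = 0.00662, adjusted p = 0.732). In NPY tumours it was -1.0 (SE 0.25, limma adjusted p = 0.069), and neither passed. DESeq2 on the recovered reads gave -0.98 for NPY against control tumours with an adjusted p of 0.0118, and over the 10 settings tried on all libraries that adjusted p ran from 0.0118 to 0.0803.

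Maob (ENSMUSG00000040147.14, chromosome X, 16709282 to 16817366, minus strand) encodes the oxidase typical of astrocytes and serotonin neurons, and its 3′ end lies 21463 bases from that of Maoa. Maob read 30.8, 42.8 and 23.9 CPM in cortex, 10.6, 10.5 and 20.0 CPM in control tumours, 19.8, 14.5 and 17.3 CPM in ETV5 tumours and 8.14, 3.41 and 12.1 CPM in NPY tumours. All tumour libraries lay below all cortex libraries, and the ETV5 libraries lay above the NPY libraries. It fell 2.72-fold in control tumours (log2 difference -1.44, SE 0.30, limma adjusted p = 0.00233), 2.10-fold in ETV5 tumours (adjusted p = 0.0113) and 5.01-fold in NPY tumours (adjusted p = 0.00267) against cortex. Against control tumours the log2 difference was 0.37 in ETV5 tumours (limma adjusted p = 0.802) and -0.81 in NPY tumours (adjusted p = 0.38). Astrocytes are known to express Maob. Their 8 markers summed to 6563 to 7722 CPM in cortex, 3998 to 4553 CPM in control tumours, 1229 to 4393 CPM in ETV5 tumours and 602 to 1958 CPM in NPY tumours, with none at 0. Of the 8, 2 rose and 5 fell in control tumours against cortex, beside 35.7% and 36.2% of all genes tested. In NPY against control tumours 2 fell, beside 4.31% of all genes. Within the ETV5 group the library with the highest Maob (replicate 1, 19.8 CPM) had the lowest astrocyte sum. The ETV5 library with the lowest Maob (replicate 2, 14.5 CPM) had the highest sum. In NPY tumours the astrocyte sums of replicates 1 to 3 (896, 602 and 1958 CPM) followed the order of Maob. In control tumours they were 4553, 4006 and 3998 CPM, and the highest Maob (replicate 3) stood with the lowest sum. The part of these cells in the Maob difference was not tested.

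The sum of Maoa and Maob per kilobase of exon was 22.6 ± 3.30 CPM in cortex, 13.2 ± 2.94 CPM in control tumours, 11.2 ± 0.520 CPM in ETV5 tumours and 6.82 ± 2.46 CPM in NPY tumours (mean ± SD, n = 3). The share of Maoa in that sum was 49.0% ± 8.0 in cortex, 63.7% ± 6.46 in control tumours, 45.2% ± 6.12 in ETV5 tumours and 60.2% ± 13.3 in NPY tumours. The 3 control tumours (56.6% to 69.3%) lay above the 3 ETV5 tumours (39.8% to 51.8%), and the NPY tumours (50.5% to 75.4%) overlapped the control tumours. With 3 libraries against 3 an exact permutation test cannot go below p = 0.10, so no test of these shares was made.

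**Figure D2:**
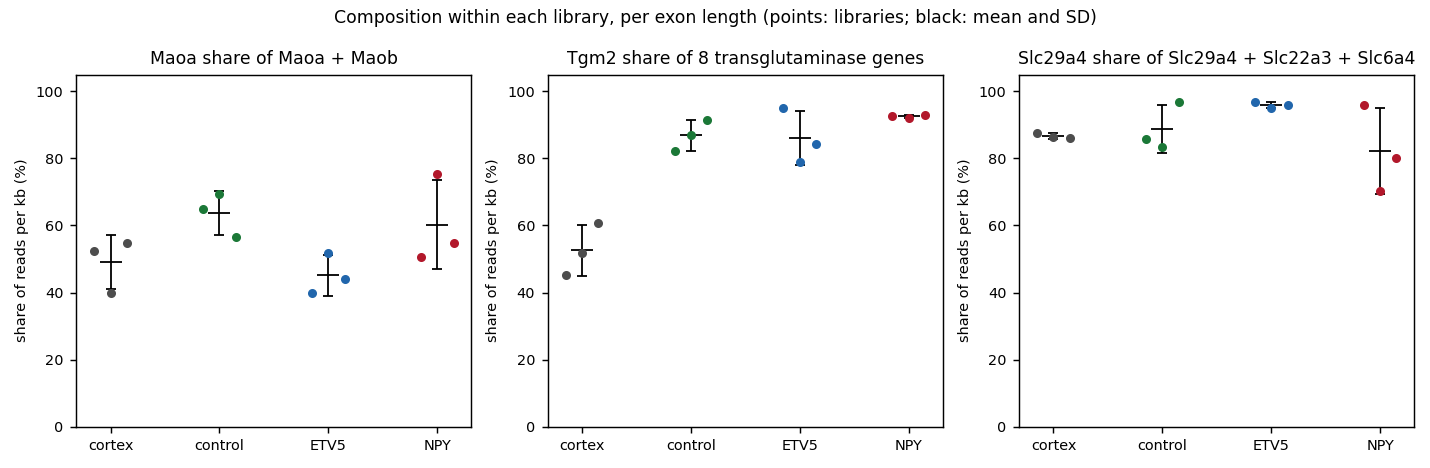
Share of reads per exon length, in percent (vertical axis from 0), within each library: Maoa of Maoa and Maob, Tgm2 of 8 transglutaminase genes, and Slc29a4 of 3 plasma membrane carriers. Points are libraries and black bars the mean and SD of 3. The Tgm2 share is 45.3% to 60.7% in cortex and 79.0% to 95% in the tumours.

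The hydroxylase genes of serotonin synthesis were weakly expressed. Tph2 (ENSMUSG00000006764.8, chromosome 10, 115078641 to 115185022, minus strand) encodes the rate-limiting neuronal hydroxylase. It read 2.28, 2.18 and 1.67 CPM in cortex and 1.06, 1.76 and 2.87 CPM in control tumours. In ETV5 tumours it read 0.656, 1.49 and 0.531 CPM, and in NPY tumours 0.243, 0.122 and 0.763 CPM, which is 11 reads over 3 libraries. Cortex and control tumours overlapped (log2 difference -0.35, SE 0.42, limma adjusted p = 0.469), and every NPY library lay below every control library. Against cortex, Tph2 was lower by a log2 difference of -1.36 in ETV5 tumours (SE 0.46, limma adjusted p = 0.0369) and of -2.47 in NPY tumours (SE 0.54, adjusted p = 0.00467). In both it passed the read filter only through cortex. The ETV5 call was made in 8 of 11 other settings on all libraries. It was lost by scaling to the library total, with a replicate block (limma adjusted p = 0.0585) and with a term for the library code (limma adjusted p = 0.0978). It was also lost in 5 of 6 fits without 1 library, and was kept without ETV5 replicate 2. Tph1, the hydroxylase outside the brain, was below the test's filter at mean levels of 0.649 CPM in cortex and at most 0.0706 CPM in a tumour group. A count of 0 in a library allows up to 3 reads, which is 0.266 to 0.503 CPM depending on the library, for counting error only. A library with 0 reads is therefore not shown to lack the transcript, and levels under this rest on few reads.

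Ddc (ENSMUSG00000020182.16, chromosome 11, 11814101 to 11898144, minus strand), the decarboxylase shared by serotonin and dopamine synthesis, read 11.4, 9.06 and 11.1 CPM in cortex and 8.26, 7.71 and 12.1 CPM in control tumours. It read 24.3, 4.48 and 15.7 CPM in ETV5 tumours and 21.1, 17.4 and 14.1 CPM in NPY tumours. All 3 NPY libraries lay above all cortex and control libraries, while the ETV5 group held both the highest and the lowest library of the study. Control tumours and cortex gave a log2 difference of -0.36 (SE 0.22, limma adjusted p = 0.177). NPY tumours exceeded control tumours by 0.99 (SE 0.26, limma adjusted p = 0.0807), which did not pass, and DESeq2 gave the same difference with an adjusted p of 0.0182. Against cortex the NPY difference of 0.55 passed by a narrow margin (SE 0.21, limma adjusted p = 0.0498). It was called in 6 of 10 other settings on all libraries. The call was lost by DESeq2, without the read filter, with a filter of 1 CPM in 3 libraries and with a replicate block (limma adjusted p = 0.0802). It was also lost in 5 of 6 fits without 1 library, and was kept without NPY replicate 3. For ETV5 against control tumours the difference was 0.37 (SE 0.61, limma adjusted p = 0.907), and it ran from -0.12 without ETV5 replicate 1 to 1.07 without ETV5 replicate 2.

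Markers of serotonin neurons and mast cells differed in direction, and several were at or near 0 reads. Fev, the transcription factor that defines serotonin neurons, had 0 reads in cortex, control and ETV5 tumours and a mean of 0.0406 CPM in NPY tumours. Of the 6 raphe markers, 3 were tested in control tumours against cortex: Gata2 (2.76 ± 0.902 to 79.8 ± 2.87 CPM) and Lmx1b rose, and Slc17a8 fell, the last 2 having passed the read filter only through the group where they are high. Lmx1b had 1 read in cortex and 350 in control tumours, a depth-adjusted ratio of 291 (95% exact interval 51.8 to 11512, counting error only). Both Gata2 and Lmx1b are also used by other cell types. Of the 8 mast cell markers, which mark a cell type that holds serotonin in mice, Fcer1a and Ms4a2 had no read in any library. Mean levels of Tpsb2, Cpa3, Tpsab1 and Cma1 were at most 0.0464 CPM in cortex. In control tumours they were 0.373, 0.106, 0.194 and 0.182 CPM, while Mcpt4 went from 0.0559 to 0 CPM. Only Kit, also expressed in neurons, was tested. It gave 51.6 ± 11 CPM in cortex and 52.8 ± 13.3 CPM in control tumours (adjusted p = 0.542 by limma). Of the platelet markers, 3 of 5 were tested and Gp1bb fell (15.7 ± 4.11 to 1.77 ± 0.647 CPM), having passed the read filter only through cortex. Pf4 gave 0.920 ± 0.676 CPM in cortex and 5.01 ± 4.66 CPM in control tumours (log2 difference 1.99, limma adjusted p = 0.0703), and 1 platelet marker was called higher in NPY tumours against cortex. Of the catecholamine neuron markers only Nr4a2 was tested, and it fell from 34.2 ± 12 to 3.79 ± 1.11 CPM, while Th read 2.22 ± 1.82 CPM in cortex and 0.602 ± 0.679 CPM in control tumours. Beside these marker counts, 35.7% of all genes tested rose and 36.2% fell in control tumours against cortex. In NPY tumours against cortex 35.1% rose and 35.9% fell.

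Around the hydroxylase, cofactor genes went in both directions. Of 9 genes for the tetrahydrobiopterin cofactor and synthesis, 7 were tested in control tumours against cortex. Of these, 3 rose and 1 fell, beside 35.7% and 36.2% of all genes tested, with a median log2 difference of 0.26. In ETV5 tumours against cortex 2 rose and 2 fell, beside 31.8% and 32.0% of all genes. Gch1, the first and rate-limiting enzyme of cofactor synthesis, rose from 0.937 ± 0.592 CPM in cortex to 79.5 ± 22.9 CPM (log2 difference 6.16, SE 0.40, limma adjusted p = 3.21e-06), and passed the read filter only through the tumours. Its level was 135 ± 52.3 CPM in ETV5 tumours and 162 ± 79.2 CPM in NPY tumours, and it did not pass against control tumours (adjusted p = 0.732 and 0.16 by limma). Pcbd2 rose by 0.96. Qdpr, the enzyme that regenerates the cofactor, fell from 138 ± 8.94 to 77.8 ± 10.9 CPM in control tumours (log2 difference -1.01, adjusted p = 9.27e-05 by limma).

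Of 11 genes of tryptophan uptake and the kynurenine route, which competes with serotonin synthesis for tryptophan, 9 were tested in control tumours against cortex, 6 rose and 2 fell, where 72.0% of all genes were called. Of these 8 genes, 4 (Kmo, Kynu, Ido1 and Ido2) passed the read filter only through the group where they are high. Slc7a5 and Slc3a2, the chains of the large neutral amino acid transporter, rose by 2.14 (51.8 ± 8.40 to 267 ± 92.0 CPM) and 1.23 (103 ± 7.65 to 275 ± 57.8 CPM), and Slc16a10, an aromatic amino acid transporter, rose by 2.11. Ido1 and Ido2, which open the kynurenine route, fell from 4.26 ± 4.03 to 0.107 ± 0.106 CPM and from 2.18 ± 0.728 to 0.366 ± 0.544 CPM, so both were near the read floor in tumours. Neither ETV5 nor NPY tumours had a gene of this list that passed against control tumours.

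The vesicle transporter gene Slc18a2 (ENSMUSG00000025094.8, chromosome 19, 59260896 to 59296012, plus strand) read 6.85, 5.70 and 6.54 CPM in cortex and 7.73, 3.08 and 3.99 CPM in control tumours. It read 4.59, 6.13 and 4.34 CPM in ETV5 tumours and 0.850, 3.04 and 1.43 CPM in NPY tumours. Control and ETV5 tumours overlapped cortex, and the 3 NPY libraries were the 3 lowest of the 12 by CPM. On the deposited values NPY and control tumours overlapped, and ETV5 tumours lay below cortex without overlap. The log2 difference from cortex was -0.63 in control tumours (SE 0.35, limma adjusted p = 0.135) and -0.53 in ETV5 tumours (SE 0.26, adjusted p = 0.118). In NPY tumours it was -2.10 (SE 0.47, limma adjusted p = 0.00522), where the gene passed the read filter only through cortex. Against control tumours the NPY difference was -1.40 (SE 0.57, limma adjusted p = 0.2), and against ETV5 tumours the ETV5 level was higher by 1.53 (unadjusted p = 0.0263, limma adjusted p = 0.816). In these 2 comparisons it passed the read filter only through control and ETV5 tumours, where it is high.

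At the plasma membrane, the low-affinity carriers fell, and the serotonin transporter had at most 17 reads in a group. Slc29a4 (ENSMUSG00000050822.11, chromosome 5, 142692512 to 142722490, plus strand) read 21.0, 16.9 and 20.7 CPM in cortex and 2.44, 4.51 and 6.06 CPM in control tumours. It read 2.49, 1.79 and 4.07 CPM in ETV5 tumours and 1.82, 1.46 and 2.19 CPM in NPY tumours. Every tumour library lay below every cortex library, and the NPY libraries lay below the control libraries. Against cortex Slc29a4 fell 5.26-fold in control tumours (log2 difference -2.39, SE 0.32, limma adjusted p = 0.000179). It fell 8.01-fold in ETV5 tumours (adjusted p = 0.000479) and 11.4-fold in NPY tumours (adjusted p = 1.58e-05) by limma. Against control tumours the log2 difference was -0.61 in ETV5 tumours (limma adjusted p = 0.804) and -1.04 in NPY tumours (adjusted p = 0.204).

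Slc22a3 (ENSMUSG00000023828.3, chromosome 17, 12418960 to 12507704, minus strand) read 4.70, 4.03 and 5.29 CPM in cortex, 97 reads in all. The 3 control tumours held 4 reads together, all in replicate 2, and the ETV5 and NPY groups held 1 read each. The depth-adjusted ratio of cortex to control tumours was 29.2 (95% exact interval 11 to 109), to ETV5 tumours 121 (21.1 to 4813) and to NPY tumours 127 (22.2 to 5062), for counting error only. limma called it lower in all 3 tumour groups against cortex (adjusted p = 0.000212, 0.000214 and 4.33e-05), and it passed the read filter only through cortex. Plg, which overlaps Slc22a3 on the other strand, read at most 0.149 CPM in any library.

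Slc6a4 (ENSMUSG00000020838.12, chromosome 11, 76998603 to 77032340, plus strand) did not pass the read filter in any comparison. It had 1 read in cortex, 17 in control tumours, 4 in ETV5 tumours and 17 in NPY tumours. In CPM the control tumours were 0.635, 0.991 and 0.319, the ETV5 tumours 0.131, 0 and 0.266, and the NPY tumours 0.121, 0.852 and 0.859. The depth-adjusted ratio of control tumours to cortex was 14.1 (95% exact interval 2.21 to 590) and of NPY tumours to cortex 13 (2.04 to 543), for counting error only. All 3 control libraries lay above all 3 cortex libraries, while the NPY libraries overlapped cortex. Without the read filter limma called Slc6a4 higher than cortex in control tumours (log2 difference 2.02, adjusted p = 0.0107) and in NPY tumours (1.85, adjusted p = 0.046), and not in ETV5 tumours (0.42, adjusted p = 0.557). Such calls were common in that setting. It called 11403 of 19836 genes in control tumours, 5684 of them higher, and 11410 of 19807 in NPY tumours, 5553 of them higher. The summed level of Slc6a4, Slc22a3 and Slc29a4 per kilobase of exon was 7.88 ± 0.892 CPM in cortex, 1.69 ± 0.624 CPM in control tumours, 1.01 ± 0.423 CPM in ETV5 tumours and 0.782 ± 0.154 CPM in NPY tumours. Slc29a4 made up 86.7% ± 0.765 of it in cortex, 88.6% ± 7.16 in control tumours, 95.9% ± 0.906 in ETV5 tumours and 82.2% ± 12.9 in NPY tumours.

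Among other carriers of amines and nucleosides, 2 rose. Of 8 further monoamine transporters, 3 were tested in control tumours against cortex and 2 rose, with a median log2 difference of 1.37. They were Slc29a1, the nucleoside transporter related to Slc29a4 (16.7 ± 2.78 to 79.7 ± 8.94 CPM, log2 difference 2.08), and Slc22a5, the carnitine transporter (15.1 ± 1.94 to 44.3 ± 5.15 CPM, 1.37). Neither gene's known main substrate is serotonin. Of 9 genes of amine breakdown after oxidation and of the melatonin route, 6 were tested, 2 rose and 1 fell, with a median of 0.28. Akr1a1, an aldehyde reductase, rose by 0.56 (362 ± 19.8 to 601 ± 35.6 CPM), and Sult1a1, a sulfotransferase, was lower by a log2 difference of -1.46. Akr1b3 was listed at 0 in every library. Beside the counts of both lists, 35.7% of all genes tested in control tumours against cortex rose and 36.2% fell.

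**Figure D3:**
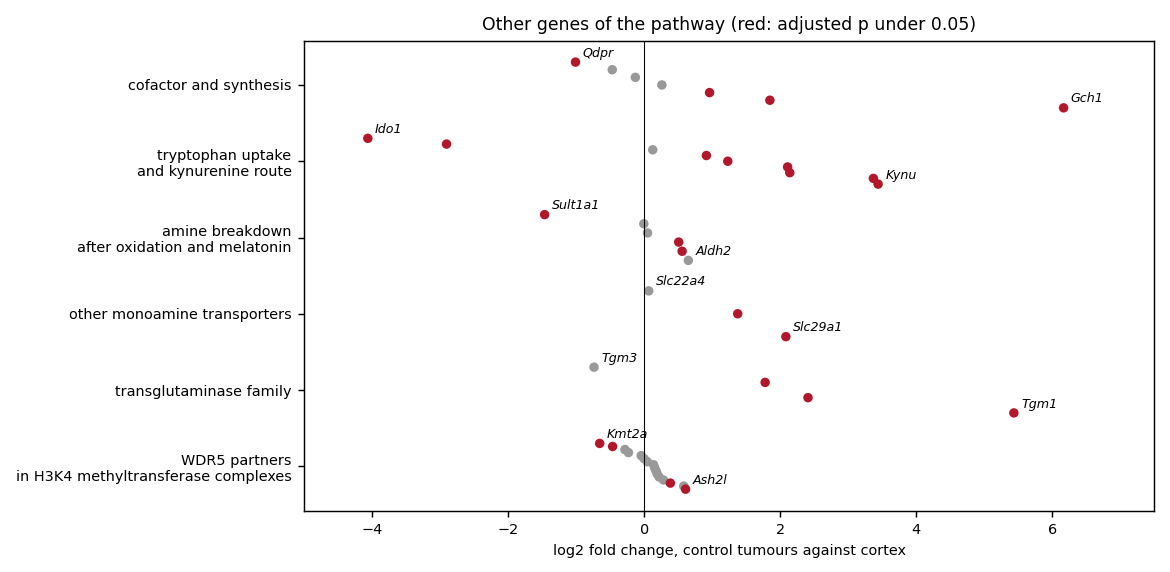
Log2 fold change (horizontal axis) of the other genes of the pathway in control tumours against cortex, 1 point per tested gene, grouped by list, with red points at an adjusted p under 0.05. The gene at each end of a list is named. Gch1 lies at 6.16 and Ido1 at -4.06.

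Counted over the set, 9 of the 10 members were tested in control tumours against cortex, and 2 rose (Tgm2 and Wdr5) and 4 fell (Maoa, Maob, Slc22a3 and Slc29a4). In this comparison 72.0% of the 14618 genes tested were called, 35.7% higher and 36.2% lower, so a call as such was common. In ETV5 tumours against cortex 2 of 9 rose and 5 fell, where 63.8% of all genes tested were called, 31.8% higher and 32.0% lower. In NPY tumours against cortex 3 of 9 rose and 6 fell, where 71.0% were called, 35.1% higher and 35.9% lower. Slc22a3 passed the read filter only through cortex in all 3 comparisons, Tph2 in all 3 as well, and Slc18a2 in NPY tumours against cortex. The 3 comparisons share the cortex libraries. By CPM, Tgm2 and Wdr5 lay above cortex without overlap in all 3 tumour groups, as did 35.7% of 14336 genes. Maoa, Maob, Slc22a3 and Slc29a4 lay below it without overlap in all 3, as did 28.5% of those genes.

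In ETV5 against control tumours limma called 0 of 8 members, and 0.0% of 14379 genes. The lowest adjusted p of any gene was 0.732. Wdr5 and Maoa had an unadjusted limma p under 0.05, which is 2 of 8 beside 6.57% of all genes. Wdr5 was higher and Maoa lower without overlap, as were 7.1% and 7.08% of all genes tested. Slc6a4, below the read filter here, was also lower without overlap. edgeR and DESeq2 called 0 members, and edgeR called 0 and DESeq2 76 of all genes.

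In NPY against control tumours limma called 0 of 7 members, and 5.04% of 14422 genes, 0.728% higher and 4.31% lower. An unadjusted limma p under 0.05 was found for 5 of 7 members, beside 23.5% of all genes, and 1 of the 5, Slc18a2, passed the read filter only through control tumours. Of the members tested, the libraries did not overlap for Wdr5 and Ddc, which were higher, and for Maoa, Slc18a2 (by CPM alone) and Slc29a4, which were lower. Tph2, below the read filter here, was also lower without overlap. Over all genes tested 11.1% were higher and 18.5% lower without overlap. edgeR called 0 members, and DESeq2 called Maoa and Ddc. Neuron markers stood apart in the same comparison: 8 of 9 fell, their sum was 529 to 1270 CPM in control tumours and 53.1 to 56.1 CPM in NPY tumours, and Neurod6 was at 0 in the latter. Oligodendrocyte markers summed to 1783 to 3704 CPM in control tumours and 350 to 1334 CPM in NPY tumours, with 1 of 6 lower. The part of these cells in the values of Maoa, Slc18a2 and Slc29a4 was not tested.

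In ETV5 against NPY tumours, scaled together, limma called 0 of 7 members and 0.0% of 14020 genes. Maob (log2 difference 1.22, unadjusted p = 0.0367, limma adjusted p = 0.816) and Slc18a2 were higher in ETV5 tumours without overlap, as were 7.47% of all genes. An unadjusted p under 0.05 was found for 2 of 7 members beside 5.72% of all genes, and 1 of the 2, Slc18a2, passed the read filter only through ETV5 tumours. edgeR and DESeq2 called 0 members, and of all genes edgeR called 0 and DESeq2 56.

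**Figure D4:**
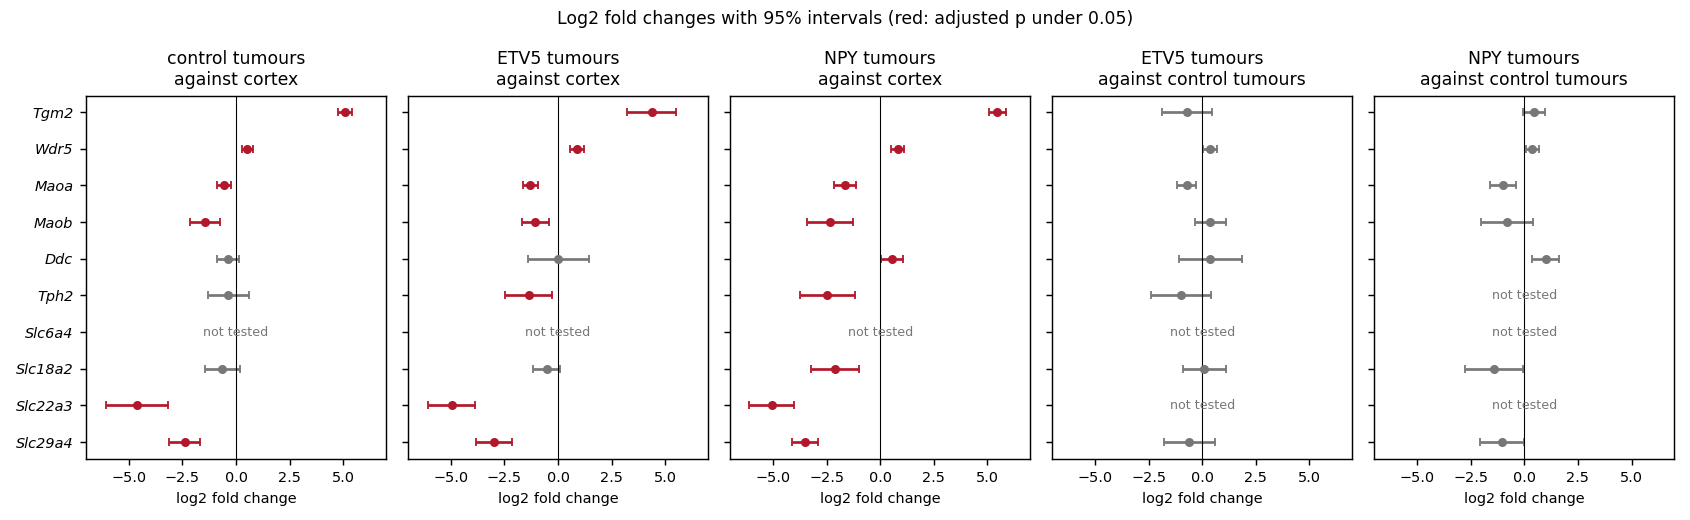
Log2 fold change with its 95% interval (horizontal axis) of each member in 5 comparisons by limma, with red at an adjusted p under 0.05 and grey otherwise. Genes below the read filter are marked as not tested. Against cortex Tgm2 lies at 5.09, 4.37 and 5.46 and Slc29a4 at -2.39, -3.00 and -3.51, and against control tumours every point is grey.

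Markers of other cell types also differed between the groups. Against cortex, control tumours had 9 of 9 neuron markers and 6 of 6 oligodendrocyte markers lower, and 6 of 8 endothelial markers higher. Of all genes tested there, 35.7% were called higher and 36.2% lower. Of 11 pericyte and fibroblast markers, 10 were higher and 1 lower, with sums of 161 to 209 CPM in cortex, 2794 to 3754 CPM in control tumours, 1057 to 2043 CPM in ETV5 tumours and 1256 to 2836 CPM in NPY tumours. Oligodendrocyte markers summed to 13819 to 17417 CPM in cortex and 430 to 1857 CPM in ETV5 tumours. Among the ETV5 tumours, neuron markers summed to 53.5, 829 and 262 CPM in replicates 1 to 3. The part of these cells in the fall of Maoa, Maob, Slc22a3 and Slc29a4 and in the rise of Tgm2 was not tested.

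**Figure D5:**
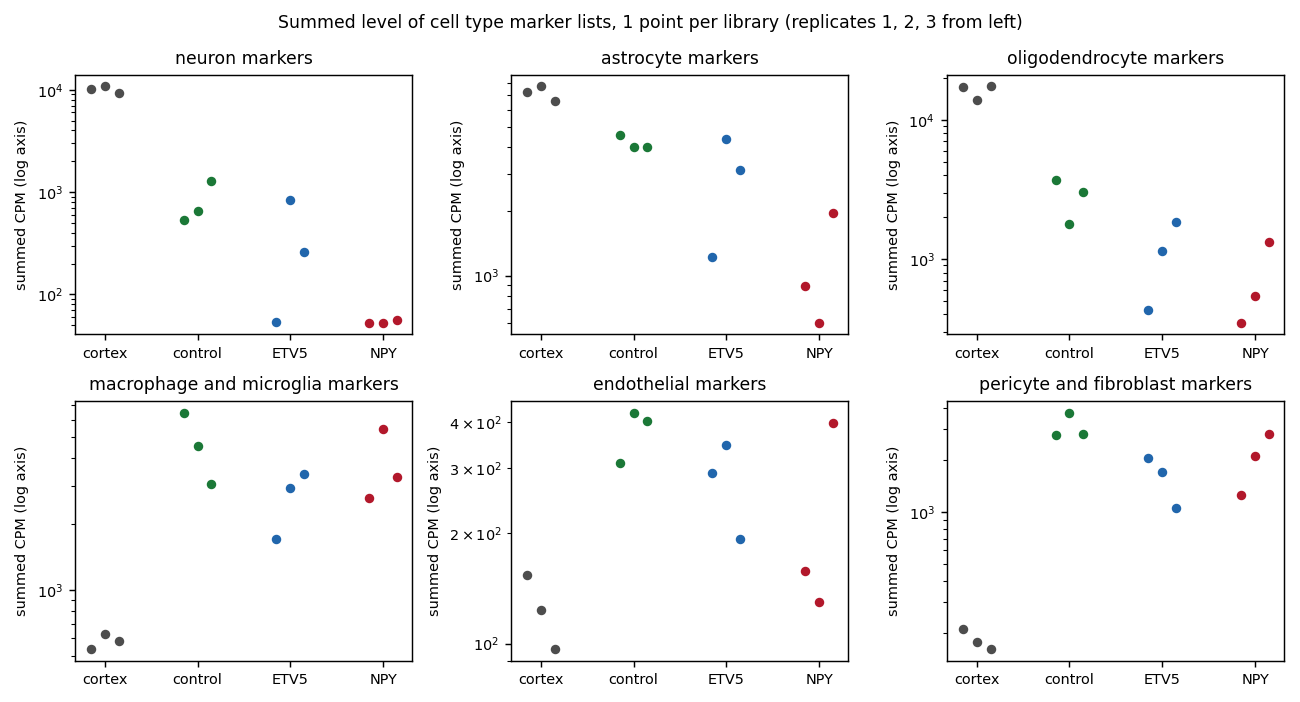
Summed CPM (vertical axis, log scale) of 6 cell type marker lists in each library, with replicates 1, 2 and 3 from left to right in each group. Neuron marker sums are 9343 to 10792 CPM in cortex and 53.1 to 56.1 CPM in NPY tumours, and macrophage marker sums are 537 to 626 CPM in cortex and at least 1701 CPM in every tumour library.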

How the data were processed

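PolyA RNA of 12 bulk mouse samples in 4 groups of 3 was analysed. Per the labels' protocols, total RNA was column-purified and made into stranded, paired-end mRNA libraries. Per the submitters' processing notes, reads went to build mm10, and STAR 2.5.0a, DESeq2 1.30.1, FastQC 0.11.7 and MultiQC 1.6 are named. The counting tool and the gene annotation used for counting remain unnamed. The authors deposited 2 tables of normalized signal, in which each library's read counts stand divided by its own size factor. Whole reads were recovered for 100% of values (tolerance 0.01 read), and the control libraries held identical reads in both tables.

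CPM was computed from the recovered reads. Tests used limma 3.58.1 (trend, robust; R 4.3.3) on log2(value + 1), with the 2 groups compared as sole term. Genes needed at least 10 reads, scaled to library size, in 3 libraries and 15 in total. The 24417 uniquely named genes entered, tests were two-sided, and Benjamini-Hochberg adjusted p-values over all genes tested were called under 0.05. NPY tumours against cortex or ETV5 tumours used recovered reads of all 12 libraries with joint median-of-ratios size factors. edgeR 4.0.16 and DESeq2 1.42.0 on recovered reads, other scalings, filters and pseudocounts, a replicate block, a library-code term and leaving out each library were alternatives. The fitting script was tested on simulated data. Count ratios carry exact (Clopper-Pearson) 95% intervals. Positions come from GENCODE M21 on mm10. The members and the 6 pathway and 10 marker lists were chosen with earlier results of these data known. All members are named. From each list the text names up to 3 called genes per direction with the largest change and a mean of at least 1 CPM, or its most abundant genes. Some list genes that this rule takes are not reported here. Tph1, Wdr5b, Fev, Tgm3, Kmo, Kynu, Tpsb2, Cpa3, Tpsab1, Cma1, Mcpt4 and the markers at 0 were named after their values were seen.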

Additional observations from a re-analysis of the deposited data

How the results depend on the processing

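Of the member values under other settings, 765 kept direction and side of the threshold, 6 newly passed it, 17 no longer passed and 13 changed sign. The sign changes all concern differences that did not pass. For Ddc in ETV5 against control tumours leaving out 1 library gave -0.12 (ETV5 replicate 1) to 1.07 (ETV5 replicate 2). For Slc18a2 in the same comparison it was -0.15 and -0.01 without control replicates 2 and 3, and -0.04 without ETV5 replicate 2, and reached 0.48 without control replicate 1. For Ddc in ETV5 tumours against cortex it was -0.027 in a fit of all 12 libraries, -0.21 with a term for the library code, -0.07 without cortex replicate 2, and -0.48 and -0.21 without ETV5 replicates 1 and 3. In ETV5 against NPY tumours Wdr5 was -0.037 without ETV5 replicate 2, -0.01 and -0.03 without NPY replicates 1 and 3, and 0.11 without NPY replicate 2. Ddc there ran from -1.08 without ETV5 replicate 1 to 0.13 without ETV5 replicate 2. Newly passing by leaving out 1 library were Ddc (-0.54, adjusted p = 0.044 by limma, without control replicate 3) and Slc18a2 (-1.0, adjusted p = 0.0117, without control replicate 1) in control tumours against cortex, and Ddc in ETV5 tumours against cortex (0.71, adjusted p = 0.0423, without ETV5 replicate 2). The lost calls were Tph2 in ETV5 tumours and Ddc in NPY tumours, both against cortex. With a replicate block their adjusted p by limma was 0.0585 and 0.0802, and each was called in 1 of the 6 fits that left out 1 library (highest adjusted p 0.11 and 0.152).

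In NPY against control tumours the 727 genes called became 1833 by DESeq2, 1128 in a fit of all 12 libraries and 264 with a replicate block, and 1 to 573 when 1 library was left out: 1 without control replicate 2, 138 without control replicate 1, 78 without control replicate 3 and 125 without NPY replicate 1. The members called there went from 0 to 2 by DESeq2 and to 1 (Maoa, adjusted p = 0.0188) in the fit of all 12. In ETV5 against control tumours DESeq2 called 76 genes. In ETV5 against NPY tumours DESeq2 called 56 and the unfiltered fit 1, and leaving out 1 library gave 0 to 1. The sample titles do not say whether same-numbered libraries were paired. Their deviations correlated at -0.39 to 0.36 in NPY against control tumours, and so few libraries cannot settle the question.

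Scaling to the library total moved the median of all genes by 0.17, 0.18 and 0.16 on the log2 scale for control, ETV5 and NPY tumours against cortex. No member changed sign by this scaling. Ddc in ETV5 tumours against cortex (0.0099 in the main fit) changed sign in the fit of all 12 libraries, which scales them together. On the deposited values in place of CPM, 38 of 40 member and group pairs within a table kept their separation or overlap, and the 2 others were Slc18a2. Depth limits Slc6a4, Slc22a3 in tumours and Tph2 in NPY tumours, which rest on 17 reads or fewer per group.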

Other observations

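Over the 9 tumour libraries, the genes whose levels varied most like those of 5 members were listed as a description, with no test. The measure was Pearson's r of log2(CPM + 1) among 11994 genes. The highest r of so many genes over 9 libraries can be high by chance. The libraries share group and depth. For Tgm2 they were Gusb (r = 0.956), Adam10 (0.949) and Vsig10 (0.933), and for Wdr5 they were Tra2b (0.949), Cep76 (0.947) and Rnf168 (0.944). For Maoa they were Thsd1 (0.974), Kcne1l (0.970) and Dock9 (0.960). For Maob they were Arhgef11 (0.967), Akr7a5 (0.963) and Vegfb (0.947), and for Ddc they were Parp16 (0.985), Erbb3 (0.969) and Kdf1 (0.964).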
